A study of Canis lupus familiaris with 31 samples.

Results

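The genes described here are those that mark T cells and cytotoxic lymphocytes in blood. Their 40 symbols were looked up in the deposited count table, and a row was taken when the gene symbol in its name was among them. A row was found for 36 of the 40 symbols, out of 32704 rows in all. CD247, CD4, CD8B and NKG7 had no row with that symbol and were not analysed here. RNA-seq was performed on whole blood of 31 purebred Miniature Schnauzers, comprising 13 HTG cases (5 females, 8 males) and 18 controls (8 females, 10 males), where HTG is a raised serum triglyceride concentration after fasting. The dogs were mature, client-owned pets, nearly all of them neutered, no treatment was given in either group, and the disease had arisen spontaneously. The dogs ate different diets, and a dog was placed in its group by its own triglyceride value, so the groups differ by a diagnosis and not by an intervention. Each dog was 1 library, and the counts summed over the rows of the table ranged from 14524659 to 41533599 per dog, with a median of 20588919 for cases and 19679367 for controls. These sums are lower in every dog than the assigned reads that the study lists, and the difference was not examined.

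T cells recognize antigen through a receptor whose signal is carried into the cell by the CD3 chains, the kinases LCK and ZAP70 and the adaptor LAT, and the response is then raised by CD28 and ICOS and restrained by CTLA4. Naive and central memory T cells circulate between blood and lymph nodes and express CCR7, IL7R and the transcription factors TCF7 and LEF1. Cytotoxic T cells and natural killer (NK) cells carry granules of perforin and granzymes and share the transcription factors TBX21 and EOMES. Whole blood also holds neutrophils, platelets and red cells, so in these libraries fewer T cells and less RNA per T cell cannot be told apart.

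All 36 genes were detected at levels that passed the filter on low counts, among 13918 genes tested. Expression is given as CPM, the counts of a gene relative to a library size scaled by TMM, and since no gene lengths were given, levels were compared between dogs and not between genes. The 36 genes together took 0.0955 to 0.277% of the summed counts of the HTG cases (median 0.166%) and 0.0699 to 0.289% of those of the controls (median 0.190%). Their summed level was 1127 to 2336 CPM in the HTG cases (median 1673) and 955 to 2469 CPM in the controls (median 1775). The ranges of the groups overlapped nearly completely, and both the dog with the lowest sum in CPM (control 9) and the dog with the highest (control 7) were controls. By share of the summed counts, the lowest dog was control 3, at 10155 of 14524659 counts. The smallest count of any of the genes in any dog was 3, and 3 genes (GZMA, GZMK and KLRB1) had fewer than 10 counts in some dog.

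The libraries were not uniform in their content of small noncoding RNA. The mean of 366 rows of small RNA split the dogs at its widest gap into 10 dogs at 1.66 to 2.37 log2 CPM (5 cases, 5 controls) and 21 dogs at 0.677 to 1.403 (8 cases, 13 controls), called the high and the low side below. The labels do not name the dogs whose libraries were prepared earlier than the rest, so this split is a property of the data and not a recorded batch. The high side holds as many cases and controls as that earlier set did, but whether they are the same dogs was not tested. Comparisons of cases with controls were therefore also made within each side.

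The study was designed to compare HTG cases with controls. No T cell or cytotoxic gene differed between them after adjustment for multiple testing (0 of 36, smallest adjusted P = 0.238 by the quasi-likelihood test of edgeR, adjusted after Benjamini and Hochberg), in a comparison where 5 of 13918 genes, 0.0359%, passed. At an unadjusted P under 0.05, 5 of the 36 genes (13.9%) passed, against 9.81% of all genes. IL2RA was the 1 gene higher in cases (5.04% of all genes), and CTLA4, IL7R, ICOS and CD28 were lower (4.76% of all genes). DESeq2 also called 0 of the 36 genes, while it called 89 of 25584 genes, 0.348%. Its shares are over this larger set, which keeps genes that the filter on low counts removed. At an unadjusted P under 0.05 it placed 1 higher and 5 lower, against 3.5% and 3.26% of that set. Over the 36 genes, the estimate was below 0 for 23 and above 0 for 13, with a median log2 fold change of -0.17 against -0.02 over all genes tested. Estimates above 0 made up 36.1% of the 36 genes and 45.5% of all genes tested. Many of the 36 genes varied together between dogs, so their signs are not independent. For 31 of the 36 genes, the 95% confidence interval of the fold change lay inside a 2-fold difference either way, and the exceptions were CTLA4, TBX21, GZMB, KLRB1 and CCL5. For no gene were the 2 groups separate, since the range of the cases overlapped that of the controls in each, and the same held for all genes tested (0% separate).

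**Figure D1:**
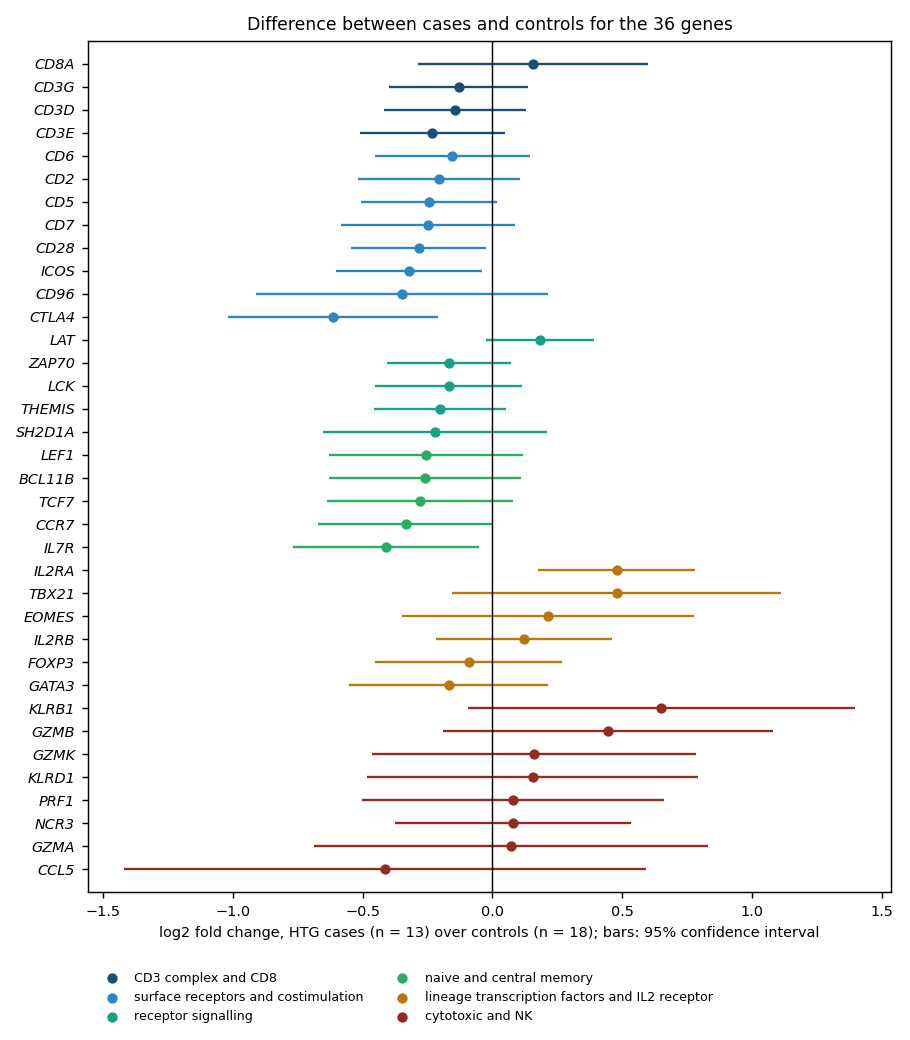
Log2 fold change of each of the 36 genes in HTG cases (n = 13) over controls (n = 18) on the horizontal axis, with bars for the 95% confidence interval and colors for the role of the gene. The costimulatory and naive T cell genes lie left of 0 without exception, 7 of the 8 cytotoxic genes lie right of 0 with wide intervals, and the intervals that exclude 0 are those of CTLA4, IL7R, ICOS, CD28 and IL2RA.

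The chains of the T cell receptor complex overlapped widely between the groups. CD3E, a chain of the CD3 complex found on every T cell, was measured at 47.4 to 117 CPM in HTG cases (median 80.2) and 61.0 to 152 CPM in the controls (median 94.2). The 2 lowest dogs were cases, the 5 highest were controls, and 4 of 13 cases lay above the control median. Its log2 fold change was -0.23 ± 0.14 (SE), with an adjusted P of 0.611 in the edgeR quasi-likelihood test. CD3D, a partner chain, was at 17.3 to 35.2 CPM in cases (median 26.1) and at 15.9 to 42.5 CPM in controls (median 27.8). CD3G, the other partner, was at 26.4 to 68.6 CPM in cases (median 47.9) and at 33.6 to 81.7 CPM in controls (median 48.0). Their log2 fold changes were -0.14 ± 0.14 and -0.13 ± 0.13, and for both the highest dog was control 7. CD8A, the coreceptor chain of cytotoxic T cells, ran the other way at 0.15 ± 0.22, with 10.9 to 39.3 CPM in cases (median 25.9) and 3.55 to 38.8 CPM in controls (median 20.4). The lowest CD8A value belonged to control 9, far below the other dogs, and the groups otherwise covered the same range. Of the 4 genes of this role, 0 passed at an unadjusted P under 0.05.

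Among the receptors that raise or restrain the T cell response, all 8 genes (CD2, CD5, CD6, CD7, CD28, CTLA4, ICOS and CD96) had estimates below 0, with a median of -0.27. Of all genes tested, 45.5% had estimates above 0. An unadjusted P under 0.05 was found for 3 of the 8 genes (37.5%, against 9.81% of all genes, 4.76% lower). CTLA4, an inhibitory receptor that competes with CD28 for its ligands, was measured at 3.05 to 12.1 CPM in HTG cases (median 6.93) and 6.15 to 23.5 CPM in the controls (median 11.1). The 5 lowest values were in cases and the 6 highest in controls, with an overlap between 6.15 and 12.1 CPM, and 3 of 13 cases lay above the control median. Its log2 fold change was -0.61 ± 0.20 with an unadjusted P of 0.00419 and an adjusted P of 0.273 (edgeR quasi-likelihood test). The estimate stayed between -0.69 and -0.52 when each dog was left out in turn.

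ICOS, a costimulatory receptor induced on activated T cells, was measured at 16.7 to 42 CPM in HTG cases (median 35.9) and 24.6 to 76.0 CPM in the controls (median 40.6). No case exceeded 42 CPM, and 3 cases lay below the lowest control. For ICOS this gave a log2 fold change of -0.32 ± 0.14 (unadjusted P = 0.0269, adjusted P = 0.431, edgeR quasi-likelihood test). CD28, the main costimulatory receptor of T cells, was measured at 5.20 to 11.1 CPM in HTG cases (median 9.20) and 6.15 to 16.2 CPM in the controls (median 10.4). The 7 highest values were all in controls, and 4 of 13 cases lay above the control median. For CD28 the log2 fold change was -0.28 ± 0.13 (unadjusted P = 0.0335, adjusted P = 0.455, edgeR quasi-likelihood test). CD28, CTLA4 and ICOS stand next to each other on the chromosome, with 0 protein-coding genes between neighbors in the RefSeq annotation of the UU_Cfam_GSD_1.0 assembly.

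CD5 and CD6, which dampen receptor signaling, had log2 fold changes of -0.25 ± 0.13 and -0.15 ± 0.15. CD2, an adhesion receptor of T and NK cells, had one of -0.21 ± 0.15, and CD7 and CD96, which both cell types carry, had -0.25 ± 0.17 and -0.35 ± 0.28. None of these 5 genes reached an unadjusted P of 0.05.

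**Figure D2:**
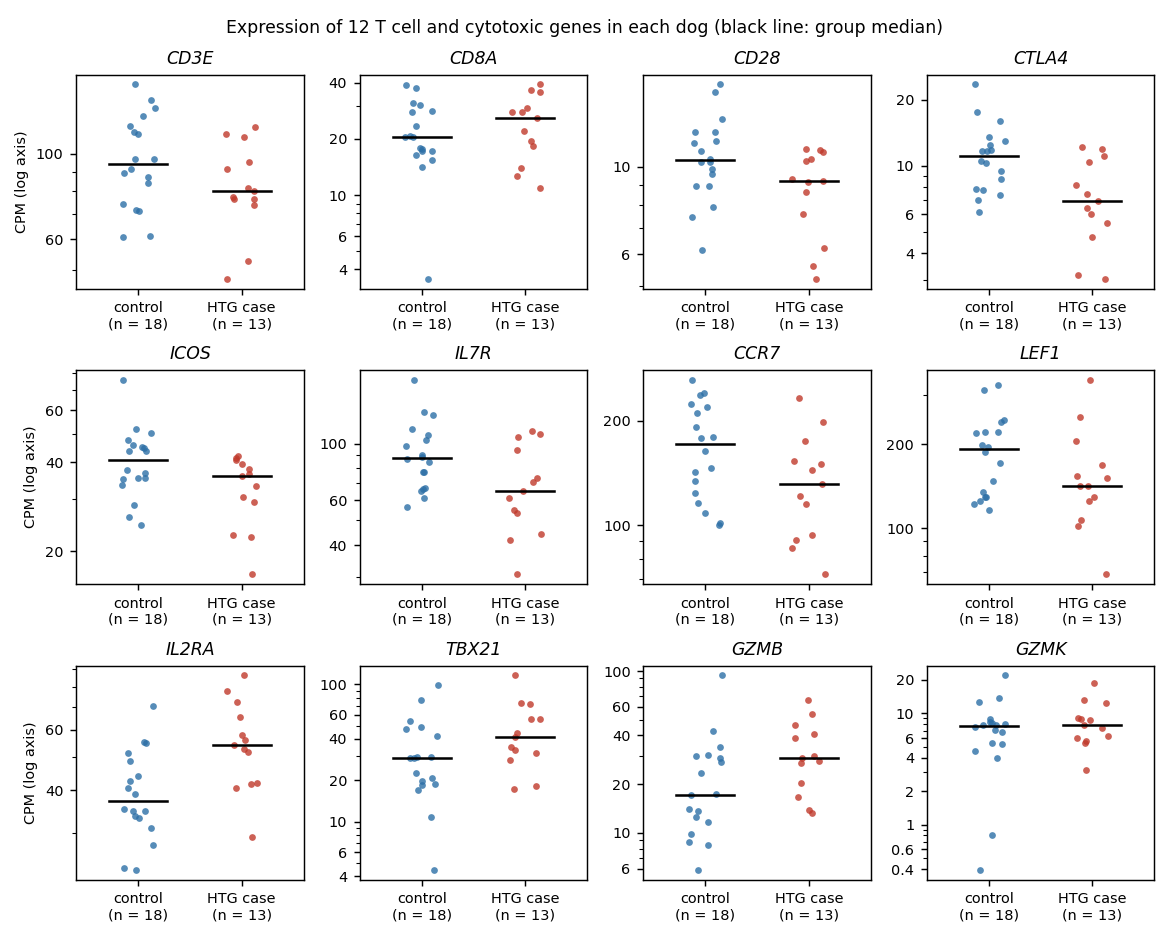
Level of 12 of the genes in each dog in CPM on a log axis, with controls (n = 18) on the left, HTG cases (n = 13) on the right and a black line at the group median. The groups overlap for every gene, most cases lie above the control median for IL2RA, most lie below it for CTLA4, and the lowest control for CD8A and for TBX21 and the 2 lowest for GZMK lie far below the other dogs.

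For the signaling genes behind the receptor, log2 fold changes lay between -0.22 and 0.18. LCK, the kinase that phosphorylates the CD3 chains, was at 60.4 to 153 CPM in HTG cases (median 96.5) and 55.2 to 162 CPM in the controls (median 106). Both groups spanned the same range. The log2 fold change was -0.17 ± 0.14, and the same estimate was obtained for ZAP70, the kinase that binds the phosphorylated chains, at -0.17 ± 0.12. THEMIS, a T cell protein needed for thymic selection, and SH2D1A, an adaptor of SLAM family receptors, were at -0.20 ± 0.12 and -0.22 ± 0.21. LAT, the adaptor on which the signaling complex assembles, was the exception in sign, at 41.8 to 75.5 CPM in cases (median 60.3) and 31.4 to 74.3 CPM in controls (median 51.2), with a log2 fold change of 0.18 ± 0.10. None of the 5 genes passed at an unadjusted P under 0.05.

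A longer list of 22 genes that act downstream of the T cell receptor leaned the same way at smaller sizes. All 22 were found and tested, 0 passed the adjusted threshold, 19 had estimates below 0 and the median was -0.11. Estimates above 0 made up 13.6% of the list and 45.5% of all genes. At an unadjusted P under 0.05, 3 were lower and 0 higher (13.6%, against 9.81% of all genes). The 3 were SKAP1, an adaptor for adhesion, at -0.33 ± 0.14, UBASH3A, a suppressor of receptor signaling, at -0.32 ± 0.15, and PRKCQ, the protein kinase C of the T cell synapse, at -0.28 ± 0.13.

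Genes of naive and central memory T cells all had estimates below 0 (5 of 5, median -0.28), while 45.5% of all genes had estimates above 0. Of the 5, 1 had an unadjusted P under 0.05 (20%, against 9.81% of all genes, 4.76% lower). IL7R, the receptor for the cytokine that keeps resting T cells alive, was measured at 30.7 to 112 CPM in HTG cases (median 64.9) and 56.3 to 178 CPM in the controls (median 88.0). Below the lowest control lay 5 cases, and 4 of 13 cases lay above the control median. For IL7R the log2 fold change was -0.41 ± 0.18 (unadjusted P = 0.0258, adjusted P = 0.422, edgeR quasi-likelihood test). CCR7, the chemokine receptor that directs T cells to lymph nodes, was measured at 72 to 233 CPM in HTG cases (median 132) and 100 to 263 CPM in the controls (median 172). The 4 lowest values were in cases, and 3 of 13 cases lay above the control median. The log2 fold change was -0.33 ± 0.17, with an unadjusted P of 0.0518 in the edgeR quasi-likelihood test.

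TCF7 and LEF1, transcription factors of naive T cells, and BCL11B, which maintains T cell identity, had log2 fold changes of -0.28 ± 0.18, -0.26 ± 0.18 and -0.26 ± 0.18. BCL11B was at 37.9 to 145 CPM in cases (median 61.6) and at 33.7 to 125 CPM in controls (median 78.4). TCF7 was at 59.8 to 251 CPM in cases (median 121) and at 89.0 to 259 CPM in controls (median 167), so the groups shared nearly the same upper end. LEF1 ran from 68.5 CPM in case 6 to 340 CPM in case 3 (median of cases 142), the latter being the highest value of all 31 dogs, while the controls ran from 116 to 326 CPM (median 192). Case 3 thus stood against the direction of its group for LEF1 and BCL11B. Without case 3, 10 of the 36 genes had an unadjusted P under 0.05 (1 higher, 9 lower), against 11.6% of all genes (5.43% higher, 6.18% lower) in that fit. Without case 6 there were 3 of the 36 (1 higher, 2 lower), against 8.37% of all genes (4.73% higher, 3.64% lower), and 0 passed the adjusted threshold in either fit.

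The lineage transcription factors and interleukin-2 receptor chains did not share a direction, with 4 of 6 estimates above 0 and a median of 0.17. IL2RA, the alpha chain of the receptor and a marker of activated and regulatory T cells, was measured at 29.3 to 86.5 CPM in HTG cases (median 54.3) and 23.5 to 70.2 CPM in the controls (median 37.2). The 3 highest dogs were cases, and 12 of 13 cases lay above the control median. Its log2 fold change was 0.48 ± 0.15 with an unadjusted P of 0.00282 and an adjusted P of 0.238 (edgeR quasi-likelihood test). FOXP3, the transcription factor of regulatory T cells, was at -0.09 ± 0.18, with 3.83 to 8.34 CPM in cases (median 5.34) and 2.65 to 11.1 CPM in controls (median 5.63). The FOXP3 values of the cases lay wholly inside the range of the controls. IL2RB, the beta chain shared with NK cells, was at 0.12 ± 0.17, and GATA3, a transcription factor of helper T cells, was at -0.17 ± 0.19, with 15.0 to 49.1 CPM in cases (median 25.9) and 12.9 to 74.9 CPM in controls (median 28.8). TBX21, a factor of cytotoxic and interferon-producing helper cells, was measured at 17.4 to 116 CPM in HTG cases (median 41.2) and 4.44 to 99.0 CPM in the controls (median 29.1). EOMES, its relative, was at 2.57 to 13.6 CPM in cases (median 7.47) and at 0.851 to 12.3 CPM in controls (median 5.13). For both the highest dog was case 5 and the lowest control 9, the groups overlapped, and the log2 fold changes were 0.48 ± 0.31 and 0.21 ± 0.28.

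Of the 8 cytotoxic and NK genes, 7 had estimates above 0 (87.5%, against 45.5% of all genes), with a median of 0.12. An unadjusted P under 0.05 was found for 0 of the 8. GZMB, the granzyme that triggers apoptosis in target cells, was measured at 13.2 to 65.9 CPM in HTG cases (median 29.2) and 5.91 to 94.0 CPM in the controls (median 17.3). Both the lowest and the highest dog were controls, and 10 of 13 cases lay above the control median. The log2 fold change was 0.45 ± 0.31 (unadjusted P = 0.164, edgeR quasi-likelihood test), with a 95% confidence interval from -0.19 to 1.08. PRF1, which encodes the pore-forming perforin, was at 0.08 ± 0.29, with 5.08 to 19.5 CPM in cases (median 11.9) and 1.09 to 31.2 CPM in controls (median 7.92). The cases lay wholly inside the range of the controls for PRF1. KLRB1 and KLRD1, lectin-like receptors of NK cells, were at 0.65 ± 0.37 and 0.16 ± 0.31, and NCR3, an activating NK receptor, was at 0.08 ± 0.22. GZMA, the granzyme with trypsin-like activity, was at 1.90 to 13.4 CPM in cases (median 4.78) and at 0.523 to 23.0 CPM in controls (median 6.14), and GZMK, a granzyme of memory cells, was at 3.10 to 18.6 CPM in cases (median 7.82) and at 0.392 to 21.9 CPM in controls (median 7.65). For both, control 18 was highest and control 3 lowest, and the log2 fold changes were 0.07 ± 0.37 and 0.16 ± 0.31. CCL5, a chemokine that memory and cytotoxic T cells store and platelets also carry, was the exception in sign at -0.41 ± 0.49, with 1.15 to 30.4 CPM in cases (median 13.0) and 1.47 to 69.3 CPM in controls (median 15.1). Granzymes and KLR receptors belong to families of similar genes, and the study's account of its libraries classes reads that mapped to several places as unassigned.

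A longer list of 20 NK and cytotoxic genes held none that passed. Of the 20, 18 had a row and 15 passed the filter, while KLRF1, IFNG and SAMD3 were at or near 0 CPM in nearly all dogs. None of the 15 had an unadjusted P under 0.05 in edgeR, nor in DESeq2, and their median was 0.07. CX3CR1, a chemokine receptor of effector lymphocytes and monocytes, was nearest to the threshold at 0.22 ± 0.14. Among 20 differentiation and checkpoint genes, 17 were found and tested, 0 passed the adjusted threshold, and 2 were lower at an unadjusted P under 0.05 (11.8%, against 9.81% of all genes at this P and 4.76% lower). These were HAVCR2, an inhibitory receptor of T cells and myeloid cells, at -0.60 ± 0.22, and CCR6, a chemokine receptor of memory T cells and B cells, at -0.42 ± 0.18.

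The genes differed strongly in how much they varied between dogs. The SD of log2 CPM over the 31 dogs had a median of 0.395 for the CD3 and CD8 genes and 0.365 for the signaling genes, against 0.367 over all genes tested. For the cytotoxic and NK genes the median SD was 1.01. The highest dog exceeded the lowest by 8.77-fold to 60.1-fold for these genes (median 36.4-fold), compared with 2.40-fold to 5.62-fold for the signaling genes. The summed level of the 8 cytotoxic genes was 48.6 to 210 CPM in the HTG cases (median 95.9) and 20.3 to 292 CPM in the controls (median 79.6). Control 9 was the lowest and control 18 the highest of the 31 dogs. Control 9 had the lowest value of 16 of the 36 genes, and it also had the highest summed level of 5 neutrophil genes (15150 CPM, against 3510 CPM in the lowest dog), of which S100A12 made up 7526 CPM, while it ranked 6 of 31 for CSF3R. With this spread, the standard errors of the cytotoxic fold changes were 0.22 to 0.49, and the intervals of KLRB1, GZMB, CCL5 and TBX21 reached past a 2-fold difference.

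Across the 31 dogs, the naive genes varied together and the cytotoxic genes varied together, with little relation between these 2 roles. The median Pearson correlation of log2 CPM was 0.72 among the 5 naive genes and 0.68 among the 8 cytotoxic genes, and it was -0.02 between the sets (40 pairs, n = 31 dogs, given as a description since the pairs share dogs and libraries). The other roles lay between them, with a median correlation with the cytotoxic genes of 0.23 for the CD3 and CD8 genes, 0.31 for the costimulatory and surface receptors, 0.35 for the signaling genes and 0.48 for the lineage factors and interleukin-2 receptor chains. In all, 88 relations between genes were tested by permutation, with Benjamini-Hochberg adjustment over the 88 and 100000 resamples. CD3E followed LCK most closely (Pearson's r = 0.934, permutation P = 1e-05, adjusted P = 4e-05, Spearman's rho = 0.912, permutation P = 1e-05), and 1e-05 was the smallest P that the permutations can give. The relation was present on both sides of the small RNA split (r = 0.965 on the high side, 0.917 on the low side), within cases (0.911) and within controls (0.949), and without the 2 dogs farthest from the median (0.918). Over the 35 other genes the median r with CD3E was 0.61, against 0.025 over all other genes tested, and r was above 0.5 for 57.1% of the 35 against 11.5% of all (as a description).

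CD3E and GZMB were not detectably related (r = 0.063, permutation P = 0.736, rho = 0.069, permutation P = 0.714, n = 31). Of the 8 cytotoxic genes, CCL5 was the most closely related to CD3E and the 1 that passed (r = 0.459, permutation P = 0.00959, adjusted P = 0.0222, rho = 0.372, permutation P = 0.0404), and the other r values ranged from 0.054 to 0.321. For CCL5, r was 0.297 on the high side, 0.437 on the low side, 0.695 within cases (permutation P = 0.0089, adjusted P = 0.0373), 0.362 within controls and 0.308 without the 2 farthest dogs (permutation P = 0.103). The relation thus did not pass without those dogs. GZMB was closest to the transcription factor TBX21 (r = 0.902, permutation P = 1e-05, adjusted P = 4e-05, rho = 0.916, permutation P = 1e-05), with r = 0.940 on the high side, 0.885 on the low side and 0.881 without the 2 farthest dogs. CD8A was more closely related to the cytotoxic set than to the CD3 chains by the size of r. Its r with PRF1 was 0.907 (permutation P = 1e-05, adjusted P = 4e-05, rho = 0.876, permutation P = 1e-05), against 0.386 with CD3E (permutation P = 0.0300, adjusted P = 0.0615, rho = 0.344, permutation P = 0.0583). By Pearson's r, the relation of CD8A to CD3E passed on the low side (r = 0.551, adjusted P = 0.0163), within controls (0.554, adjusted P = 0.0291) and without the 2 farthest dogs (0.434, adjusted P = 0.0308). By Spearman's rho it passed in none of these settings (permutation test, adjusted P = 0.131, 0.17 and 0.0999). Pearson's r was -0.155 on the high side and 0.258 within cases (adjusted P = 0.571). The difference between these correlations was not tested. The relation of CD8A to PRF1 was found on both sides (r = 0.945 and 0.899), in cases (0.876), in controls (0.923) and without the 2 farthest dogs (0.833).

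**Figure D3:**
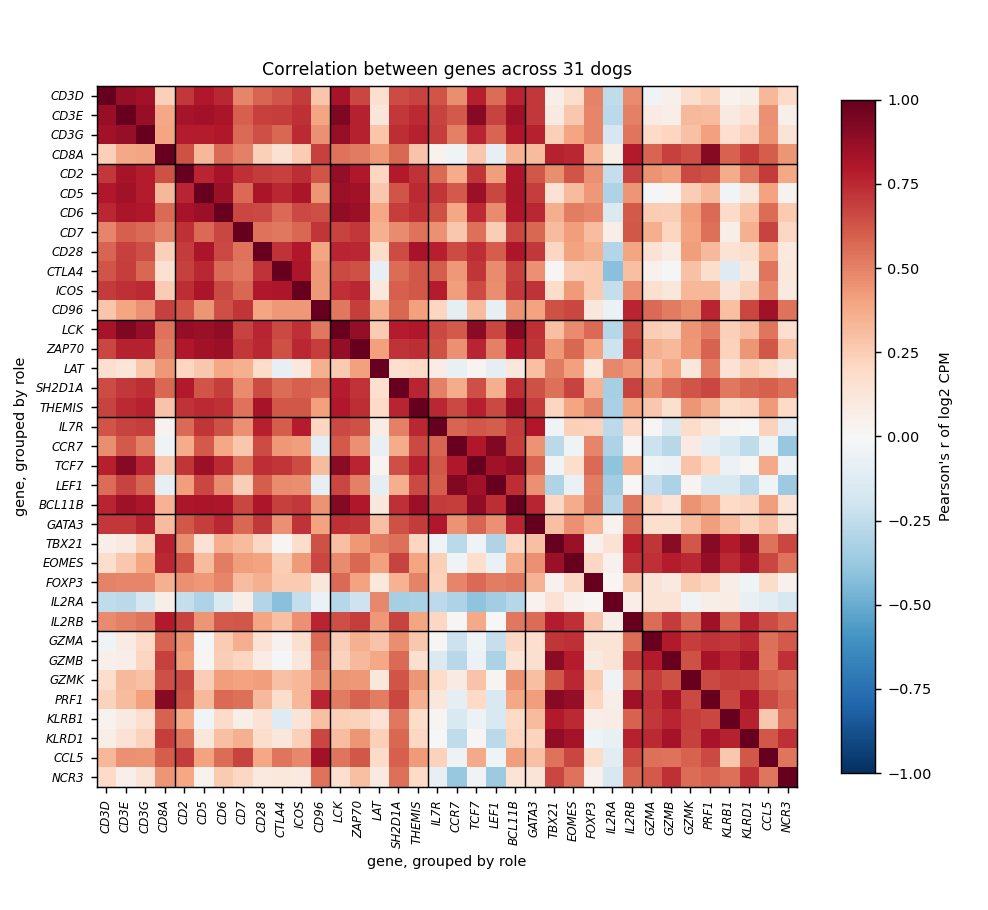
Pearson's r of log2 CPM for each pair of the 36 genes across 31 dogs, with genes on both axes grouped by role (black lines) and color from blue (-1) to red (1). A red block joins most of the CD3, costimulatory, signaling and naive genes, while LAT, CD8A and CD96 are pale against CCR7 and LEF1. A separate red block at the lower right holds the cytotoxic genes, and CD8A, TBX21, EOMES and IL2RB are red with that block. IL2RA is pale or blue against nearly all the others.

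Of the 3 markers of other blood cells set against CD3E, 1 was related to it. CD3E was inversely related to CSF3R, the granulocyte colony-stimulating factor receptor of neutrophils (r = -0.587, permutation P = 0.00057, adjusted P = 0.00157, rho = -0.617, permutation P = 0.00036). In the permutation test it passed on the low side (r = -0.513), within controls (-0.653, adjusted P = 0.0103) and without the 2 farthest dogs (-0.513). It did not pass on the high side (-0.602, adjusted P = 0.158) or within cases (-0.538, adjusted P = 0.178). For the B cell gene MS4A1 (r = 0.131, permutation P = 0.484, adjusted P = 0.600, rho = 0.226, permutation P = 0.222) and the platelet gene ITGA2B (r = -0.354, permutation P = 0.0511, adjusted P = 0.0978, rho = -0.400, permutation P = 0.0276), no relation to CD3E passed. The summed level of 5 neutrophil markers was 5206 to 9448 CPM in cases (median 7187) and 3510 to 15150 CPM in controls (median 6207), and 0 of them had an unadjusted P under 0.05. For 8 T cell markers, the sum was 273 to 653 CPM in cases (median 460) and 287 to 826 CPM in controls (median 478). Of the 7 B cell markers, 1 had an unadjusted P under 0.05 (BANK1, 0.31 ± 0.11), against 9.81% of all genes (5.04% higher). All 5 platelet markers had estimates above 0 and an unadjusted P under 0.05, with a median of 0.75, and their sum was 1386 to 4656 CPM in cases (median 2279) and 631 to 2735 CPM in controls (median 1580). None of the 5 passed the adjusted threshold in edgeR, and 3 did in DESeq2. Of 4 monocyte and 4 erythroid markers tested, 0 had an unadjusted P under 0.05, and the monocyte gene FCN1 was at or near 0 in all dogs.

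IL2RA differed from most of the T cell genes in its relations, and LAT shared part of this. Of the 35 genes set against CD3E, 22 passed. IL2RA was not detectably related to CD3E (r = -0.273, permutation P = 0.137, rho = -0.351, permutation P = 0.0546) or to FOXP3 (r = 0.019, permutation P = 0.920, rho = -0.020, permutation P = 0.917). It followed ITGA2B, the platelet integrin chain that was chosen as the platelet marker for these relations, at r = 0.888 (permutation P = 1e-05, adjusted P = 4e-05, rho = 0.880, permutation P = 1e-05). This relation held on the high side (r = 0.847), on the low side (0.854), within cases (0.862), within controls (0.853) and without the 2 farthest dogs (0.851). LAT was likewise not detectably related to CD3E (r = 0.120, permutation P = 0.521, rho = 0.045, permutation P = 0.811), and its r with IL2RA was 0.484 (as a description). ITGA2B was also positively related to LAT (r = 0.459, permutation P = 0.00913, adjusted P = 0.0217, rho = 0.380, permutation P = 0.0360), but r fell to 0.257 without the 2 farthest dogs. Its relations to CTLA4 (r = -0.493, permutation P = 0.00495, adjusted P = 0.0125, rho = -0.408, permutation P = 0.0232), CD3D (r = -0.412, permutation P = 0.0214, adjusted P = 0.0459, rho = -0.411, permutation P = 0.0228) and TCF7 (r = -0.411, permutation P = 0.0212, adjusted P = 0.0459, rho = -0.457, permutation P = 0.0105) were negative, and r was -0.597, -0.464 and -0.617 without the 2 farthest dogs. On the high and the low side, r was -0.534 and -0.406 for CTLA4, -0.333 and -0.336 for CD3D, and -0.756 and -0.132 for TCF7. The median r of ITGA2B over 35 of the genes was -0.16.

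**Figure D4:**
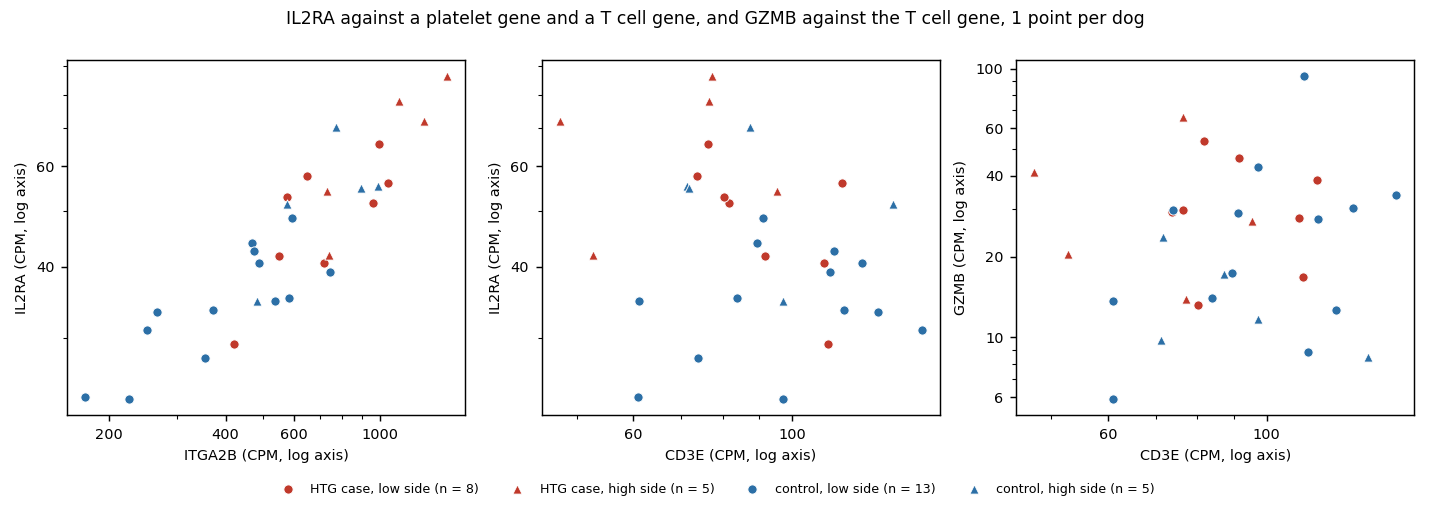
Levels in CPM on log axes with 1 point per dog, for IL2RA against the platelet gene ITGA2B (left), IL2RA against CD3E (middle) and GZMB against CD3E (right), in red for HTG cases, blue for controls, triangles for the high side and circles for the low side of the small RNA split. IL2RA rises along ITGA2B in every group (r = 0.888), whereas the middle and right panels show no such line (r = -0.273 and 0.063).

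The comparison of cases with controls was repeated with the mean log2 CPM of the platelet markers as a covariate, a fit that was added after the values had been seen. The log2 fold change of IL2RA was then -0.01 ± 0.097 with an unadjusted P of 0.916 (edgeR quasi-likelihood test), compared with 0.48 without the covariate. LAT went from 0.18 to 0.03 and CTLA4 from -0.61 to -0.42 (unadjusted P = 0.0748, edgeR quasi-likelihood test). With the covariate, 0 of the 36 genes passed at an unadjusted P under 0.05, against 5.22% of all genes, and the median log2 fold change was -0.04. All 5 platelet markers had estimates above 0 in cases, so the covariate is not independent of the diagnosis, and the part of platelet content in these values was not tested.

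Between the sides of the small RNA split, with the group in the model, the log2 fold change in level of the high over the low side was below 0 for 31 of 36 genes (median -0.25, against -0.01 over all genes), and 1 gene was called in the other direction. Estimates above 0 made up 13.9% of the 36 genes and 46.9% of all genes. IL2RA was the 1 of 36 genes called between the sides (log2 fold change 0.52 ± 0.13 for the high over the low side, adjusted P = 0.00747, edgeR quasi-likelihood test), against 7.57% of all genes. It was measured at 34.8 to 86.5 CPM on the high side (median 55.2) and at 23.5 to 65.6 CPM on the low side (median 40.6). At an unadjusted P under 0.05, 1 gene was higher and 5 were lower on the high side (16.7%, against 21.9% of all genes, of which 10.7% higher and 11.2% lower). Those lower were SH2D1A (-0.51 ± 0.22), CD2 (-0.34 ± 0.16), CD6 (-0.31 ± 0.15), CCL5 (-1.08 ± 0.52) and THEMIS (-0.26 ± 0.13). Of the 5 platelet markers, 4 were called in the same direction as IL2RA. The log2 fold change of IL2RA in cases over controls was 0.32 ± 0.21 within the high side (unadjusted P = 0.164) and 0.49 ± 0.14 within the low side (unadjusted P = 0.00219, edgeR quasi-likelihood test). For SH2D1A, CD2, CD6, CCL5 and THEMIS it was 0.0074, -0.15, -0.13, -0.45 and -0.26 within the high side and -0.23, -0.18, -0.12, -0.27 and -0.14 within the low side, with 0 of these at an unadjusted P under 0.05.

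The log2 fold changes of cases over controls were higher within the high side than within the low side for the cytotoxic genes other than CCL5. On the high side (5 cases, 5 controls), 3 genes were higher and 2 lower in cases at an unadjusted P under 0.05 (13.9%, against 3.85% of all genes, of which 2.17% higher and 1.68% lower), and 0 were called after adjustment. GZMB was at 1.25 (unadjusted P = 0.0111), TBX21 at 1.34 (unadjusted P = 0.0114) and NCR3 at 1.12 (unadjusted P = 0.00405) on the log2 scale, while IL7R was at -0.88 (unadjusted P = 0.0178) and CTLA4 at -0.77 (unadjusted P = 0.0373), all from the edgeR quasi-likelihood test. On the low side (8 cases, 13 controls), the same genes were at 0.22, 0.18, -0.28, -0.18 and -0.50, and 2 of 36 genes (IL2RA higher, CTLA4 lower) had an unadjusted P under 0.05 (5.56%, against 10.6% of all genes, of which 6.54% higher and 4.1% lower). The estimates of GZMA, GZMK, PRF1, KLRD1 and NCR3 were above 0 on the high side and below 0 on the low side. On the high side, TBX21 was at 116 CPM in case 5 and 72.9 CPM in case 6. It was at 17.4 to 31.7 CPM in the other cases of that side and at 16.9 to 29.5 CPM in its controls. Control 3, lowest of all dogs for GZMA, GZMK and NCR3, was on the high side, and control 18, highest for these genes, on the low side. The high side was not refitted without these dogs. The difference between the sides was tested as an interaction of group with side, also added after the values had been seen. It was called for 0 of 36 genes and 0% of all genes, and NCR3 alone had an unadjusted P under 0.05 (1.41, unadjusted P = 0.00188, adjusted P = 0.970, edgeR quasi-likelihood test), so 2.78% of the 36 genes passed, against 4.35% of all genes.

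**Figure D5:**
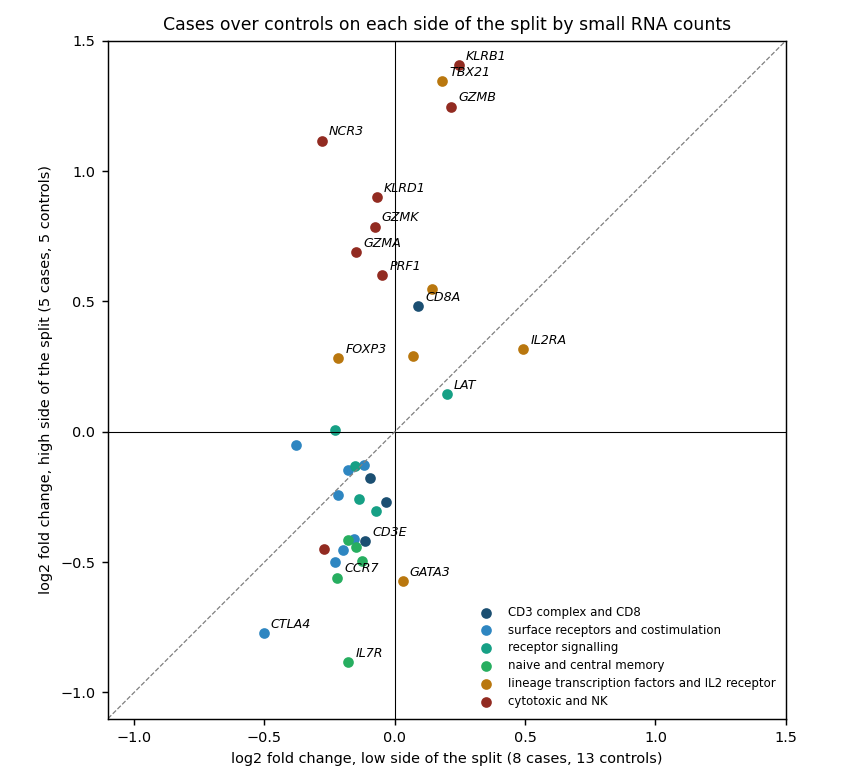
Log2 fold change of HTG cases over controls on the low side of the small RNA split (8 cases, 13 controls, horizontal axis) against that on the high side (5 cases, 5 controls, vertical axis), with 1 point per gene, colors for the role and a dashed line where both would be equal. The cytotoxic genes other than CCL5 lie at 0.60 to 1.41 on the vertical axis and at -0.28 to 0.24 on the horizontal one, and the naive genes lie below 0 on both.

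Females and males were compared over all 31 dogs with the group in the model. None of the 36 genes was called (smallest adjusted P = 0.959, edgeR quasi-likelihood test), against 0.122% of all genes, and 2 were lower in females at an unadjusted P under 0.05 (5.56%, against 4.89% of all genes, of which 3.29% lower). IL7R was measured at 42 to 112 CPM in females (median 77.1) and at 30.7 to 178 CPM in males (median 91.7), with a log2 fold change of -0.35 ± 0.17 and an unadjusted P of 0.0412 (edgeR quasi-likelihood test). The females lay within the range of the males. GATA3 was at 15.0 to 37.8 CPM in females (median 26.1) and at 12.9 to 74.9 CPM in males (median 29.6), with a log2 fold change of -0.37 ± 0.18 and an unadjusted P of 0.0496 (edgeR quasi-likelihood test). FOXP3 and SH2D1A, which lie on the X chromosome in the RefSeq annotation, were at 0.28 (unadjusted P = 0.111) and -0.14 (unadjusted P = 0.521) in the same fit. FOXP3 ran from 2.65 to 11.1 CPM in females (median 6.64) and from 3.34 to 9.34 CPM in males (median 5.17). ICOS, with 22.4 to 47.6 CPM in females (median 35.1) and 16.7 to 76.0 CPM in males (median 37.4), and LAT, with 41.3 to 75.5 CPM and 31.4 to 74.3 CPM (medians 50.7 and 59.3), were at -0.23 (unadjusted P = 0.101) and -0.16 (unadjusted P = 0.130), and with FOXP3 they completed the 5 genes with the smallest P. DESeq2 likewise called 0, against 0.106% of its 25546 genes. It had 2 lower at an unadjusted P under 0.05, against 2.25% of those genes. No difference in the effect of the diagnosis between the sexes was detected. The interaction of sex with group was called for 0 of 36 genes and 0% of all genes. In edgeR and in DESeq2, 0 of 36 had an unadjusted P under 0.05, against 3.93% of all genes in edgeR and 3.3% of 25564 genes in DESeq2.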

How the data were processed

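Whole blood RNA of 31 dogs was sequenced after library preparation with a stranded total RNA kit and removal of ribosomal RNA. HISAT2 was used by the authors to align the trimmed reads to the Dog10K_Boxer_Tasha assembly, and they deposited raw counts of read pairs per gene, where both mates had to map. Reads mapped to several places were classed as unassigned. The annotation version, the counting tool and its strand setting are not given in the sources used here. Groups, dog numbers and sex were taken from the labels, and 7120 of 32704 rows held 0 counts in every dog.

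From these counts, edgeR 4.0.16 in R 4.3.3 was used for TMM scaling, filtering by expression within groups (13918 genes kept) and the quasi-likelihood test of HTG cases against controls, with Benjamini-Hochberg adjustment over all genes tested and a threshold of 0.05. The fit was tested on simulated data. The study's own batch term could not be used because the labels do not name the dogs of the earlier libraries. Sex and its interaction with group were fitted over all dogs. Log2 CPM for correlations used a prior count of 2, with permutation tests in numpy 2.4.6. A planned relation of CD3E with CD4 was not run, since CD4 was not analysed here. Alternatives were DESeq2 1.42.0, RLE and upper quartile scaling, other filters, sex, age, body condition score and the small RNA split as covariates, each side of the split alone, removal of 2 dogs or of the 20 genes with the highest totals, a replicate block, and each of the 31 dogs left out in turn. Age and body condition score came from the study's list of dogs and served as covariates only. Small RNA rows were those named as Rfam families, microRNAs or U RNAs. Gene order came from RefSeq (UU_Cfam_GSD_1.0, 40 of 40 symbols matched), and no coordinates were used.

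The members, their roles and the gene lists were chosen with earlier results of these data known. The rule for naming was that each of the 36 genes is accounted for, with full values for the CD3 and CD8 genes, the naive genes, the lineage factors, CTLA4, IL2RA, granzymes, PRF1, CCL5 and the 5 genes with the smallest P in the comparisons of groups and of sexes, and that up to 4 genes with the smallest P are named from each pathway list. BANK1, FCN1, the dogs named, the platelet covariate and the relations beyond the 9 planned for CD3E were chosen after values were seen. P values measure the spread between dogs, and each dog was 1 library. No count table values were altered, and 0 columns were left unused.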

Additional observations from a re-analysis of the deposited data

How the results depend on the processing

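In the 14 other settings listed at the outset, the fits without 1 dog and the fit with the platelet covariate, 0 of the 36 genes were called, and the median log2 fold change was below 0 throughout, at -0.19 to -0.04 over those settings and -0.21 to -0.12 with 1 dog left out in turn. The number of genes called among all genes moved from 5 to 89 in DESeq2, to 1 with at least 10 counts in every dog, to 3 with body condition score as a covariate, to 28 without case 1 and control 3, and to 0 on the high side alone, on the low side alone, with the platelet covariate and with the replicate block. It ran from 1 to 154 with 1 dog left out, the latter without control 3 and the former without case 1. The cause was not tested. Of 537 values of the 36 genes under those settings, 521 kept their sign and side of the threshold and 16 reversed, all with adjusted P above the threshold. On the high side these were SH2D1A (0.0074) and FOXP3 (0.28), on the low side GATA3 (0.030), GZMA (-0.15), GZMK (-0.077), PRF1 (-0.049), KLRD1 (-0.069) and NCR3 (-0.28), and without case 1 and control 3 GZMA (-0.14). With the platelet covariate they were CD3D (0.039), CD3G (0.0050), LCK (0.0046), FOXP3 (0.070), IL2RA (-0.010) and GZMA (-0.32). With the dog number as a replicate block over numbers 1 to 13, CCL5 was at 0.044, the median of the 36 genes was -0.10, 0 were called and 5 (4 higher, 1 lower) had an unadjusted P under 0.05, against 6.19% of all genes (3.96% higher, 2.23% lower). The numbers did not pair the dogs, since the correlation of deviations over 13 pairs was -0.44 to 0.26 and 1 dog correlated best with its own number. Of 9 relations of CD3E listed at the outset, 4 passed over all dogs, by Spearman's rho, with a prior count of 0.5 and within controls, 5 on the low side and without the 2 farthest dogs, 2 on the high side and 1 within cases. Relations that reversed were CD8A (-0.16), GZMB (-0.51) and PRF1 (-0.32) on the high side and GZMB (-0.048) and MS4A1 (-0.19) within cases. Depth limited GZMA, GZMK and KLRB1, with counts as low as 3.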

Other observations

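The dogs with the lowest cytotoxic values stood apart in other blood cells as well. Control 9 had 3.55 CPM of CD8A, 4.44 of TBX21, 5.91 of GZMB and 1.09 of PRF1, and had the highest sum of neutrophil markers (15150 CPM, led by S100A12 at 7526 CPM, with CSF3R at 4678 CPM ranking 6 of 31), the highest sum of monocyte markers (2857 CPM) and the lowest sum of platelet markers (631 CPM) of all 31 dogs. Control 3, at 0.392 CPM of GZMK and 0.523 of GZMA, had the highest sum of erythroid markers (25600 CPM, against 552 in the lowest dog). Control 18 had the highest values of 6 of the 36 genes, among them GZMA, GZMB, GZMK, PRF1 and NCR3. Case 5 had the highest values of 6 others, among them CD8A, TBX21, EOMES, KLRB1 and KLRD1. The part of cell content in these values was not tested.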
